A study of Capra hircus with 4 samples.

Results

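The genes described here are 6 members of the Notch pathway: the receptors NOTCH1, NOTCH2 and NOTCH3 and the ligands JAG1, JAG2 and DLL4. They were chosen by symbol and not by a rule on measured values, though with earlier results of these data known. All 6 were found among the 28944 genes of the count matrices. Nuclei of the ovary of 4 adult goats were profiled by droplet single-nucleus RNA sequencing from the 3' end of transcripts, with 1 library per goat. The 2 Nubian goats belong to a polytocous breed and came from a group with litters of at least 3, and the 2 Du'an goats belong to a monotocous breed and came from a group with litters of 1. All 4 goats were about 3 years old and had carried a progesterone device of 300 mg for 17 days to bring them into estrus together. The design held no group meant for another phase of the cycle, and the phase of each goat was not tested. Breed is tied to litter size and to the animals themselves, and these cannot be told apart with 2 goats on each side.

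In Notch signalling a transmembrane ligand on one cell, of the Jagged or the Delta-like kind, binds a Notch receptor on its neighbour. The receptor is then cut, first by an ADAM protease and then by gamma-secretase, and its intracellular part joins RBPJ and a Mastermind-like protein on DNA to switch on targets of the HES and HEY families. In blood vessels NOTCH1, NOTCH4, DLL4 and JAG1 take part in arterial identity and in the choice between tip and stalk cells, NOTCH3 is known as the receptor of mural cells around vessels, and in the ovary NOTCH2 and Jagged ligands are known from granulosa cells and oocytes.

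The matrices held 48332 nuclei and 225537272 unique molecular identifiers (UMIs, 1 per captured RNA molecule), with 9364 to 16988 nuclei per goat, and 44872 nuclei passed the filters with a median of 2279 UMIs. Between 54 and 131 nuclear barcodes were shared by each pair of libraries. In the nuclei of the classes named below, all 9 granulosa markers were seen in each goat. Their summed level was 3578 to 4943 CPM (counts of a gene for each 1000000 UMIs of the sum it belongs to). Of 8 oocyte markers 6 were seen in each goat, with a sum of 2.56 to 4.73 CPM, and no class of oocytes was named. Nuclei without a class name, and classes with under 20 nuclei in a goat, were left out of these sums. Nuclei were grouped into 27 clusters by other genes than the 6 members, the rest of the pathway and the markers, and 14 classes were named from markers, each called "-like" here. The largest unnamed cluster held 6642 nuclei at a median of 865 UMIs, and a further 3788 nuclei had no name. The goats differed in their mix of classes: mural granulosa-like nuclei numbered 4, 1475, 4843 and 429 in Du'an 1, Du'an 2, Nubian 1 and Nubian 2, and progenitor granulosa-like nuclei 3031, 217, 657 and 2477. Per-goat values below follow that order of goats. A class entered the tests for a goat with at least 20 nuclei, so mural granulosa-like and fibroblast-like nuclei rest on 3 goats and ciliated-like nuclei on 2. No p-value below counts nuclei as replicates. Comparisons of classes, or of nuclei within a class, remove the level of each goat, and their p-values measure the scatter that is left. For classes this scatter is pooled over the 14 classes, and several sums come from the same goat. Only the comparisons of breeds within a class measure the spread between goats of a breed.

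The 6 genes fell into separate patterns across the classes. DLL4 and JAG2 were highest in blood endothelial-like nuclei and JAG1 was high in both blood endothelial-like and pericyte-like nuclei. NOTCH3 was highest in pericyte-like nuclei, NOTCH1 in lymphatic endothelial-like nuclei, and NOTCH2 was measured in every class and lowest in both endothelial classes. In all nuclei the files held 6341 UMIs of NOTCH1, 103859 of NOTCH2, 1148 of NOTCH3, 6453 of JAG1, 951 of JAG2 and 497 of DLL4, so the precision is lowest for DLL4 and JAG2. Levels of different genes were not compared, since the counts do not correct for how well each 3' end is captured.

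**Figure D1:**
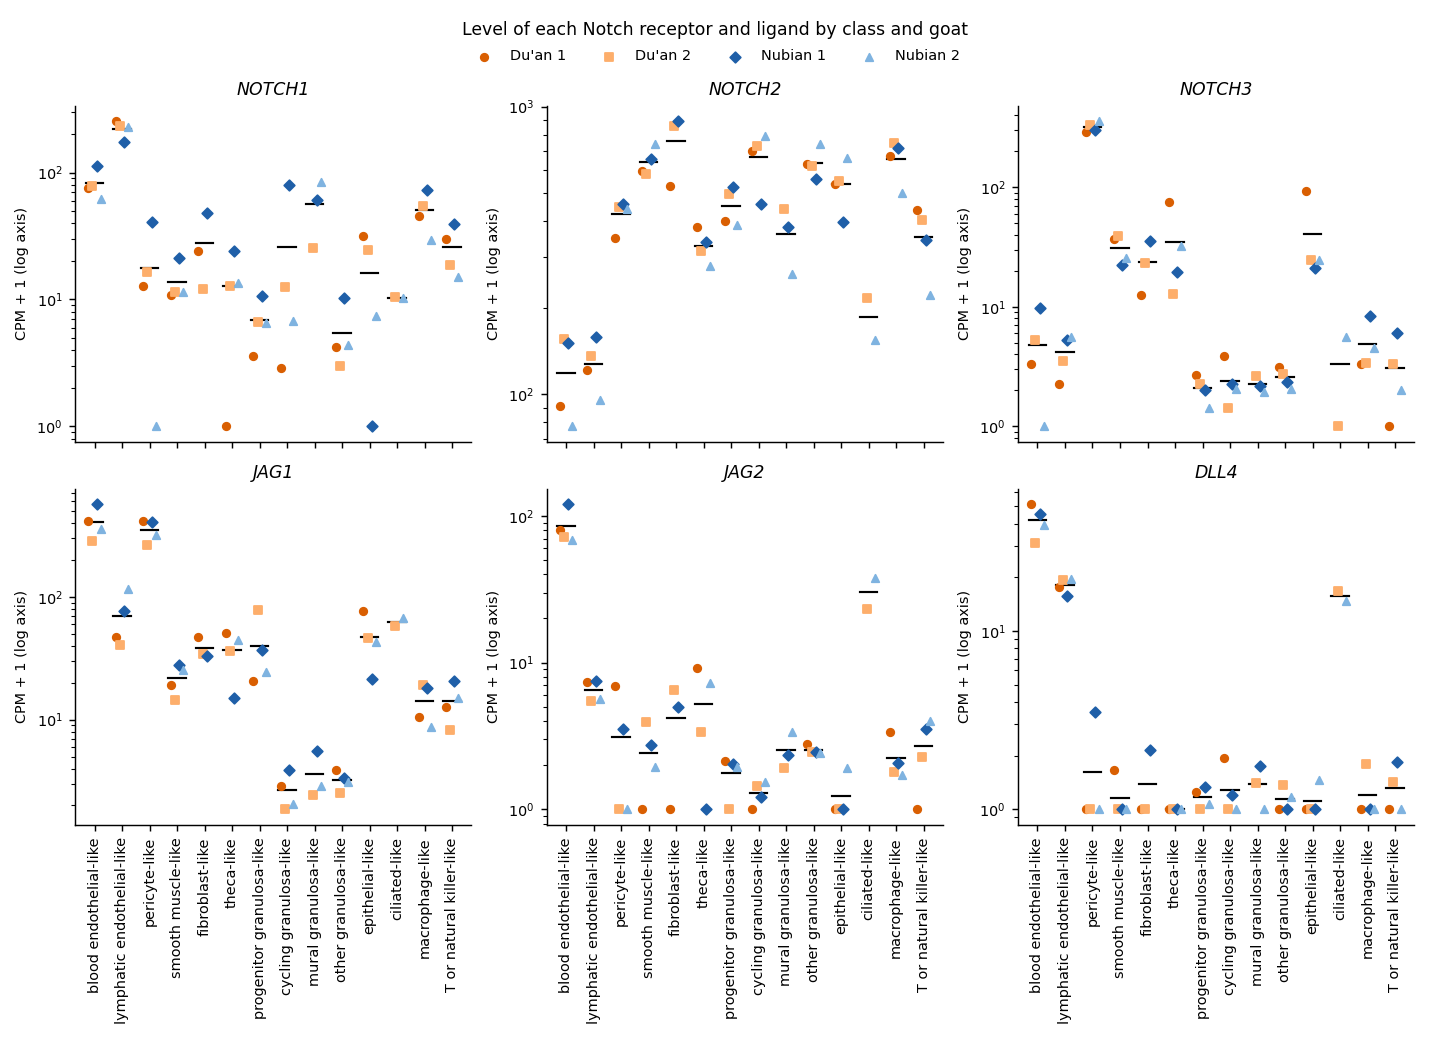
Level of each gene as CPM + 1 on a log axis, for 14 classes; each point is the sum over the nuclei of 1 goat in 1 class, a point at 1 is a count of 0, and the black line is the mean over goats. NOTCH3 stands out in pericyte-like nuclei at 288 to 359 CPM, and DLL4 in blood endothelial-like nuclei at 30.1 to 50.5 CPM.

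NOTCH1, the receptor best known from endothelium and T cell development, was highest in lymphatic endothelial-like nuclei, with 254, 231, 173 and 226 CPM in the 4 goats (221 ± 34.2, SD, n = 4). Blood endothelial-like nuclei followed with 75.0, 77.9, 111 and 60.9 CPM, and the lowest lymphatic value lay above the highest blood endothelial value. Then came mural granulosa-like nuclei with 24.5, 59.3 and 83.6 CPM in Du'an 2, Nubian 1 and Nubian 2, and macrophage-like nuclei with 44.7, 54.0, 72.2 and 28.2 CPM. At the low end stood progenitor granulosa-like nuclei with 2.58, 5.65, 9.56 and 5.54 CPM and other granulosa-like nuclei with 3.22, 1.99, 9.27 and 3.34 CPM. Other granulosa-like nuclei are those of granulosa subclusters led by cumulus markers, which were given no state name. Among the other classes with 3 or more goats the means ran from 11.9 CPM in theca-like to 27.0 CPM in fibroblast-like nuclei. Set against the average of all other classes (edgeR, Benjamini-Hochberg over 14694 genes) NOTCH1 rose in 4 of 14 classes and fell in 2. The log2 fold change was 3.76 ± 0.27 (SE) in lymphatic endothelial-like nuclei (adjusted p = 1.45e-16), where 24.5% of all genes were called in either direction. It was 2.04 in blood endothelial-like nuclei, 1.60 in mural granulosa-like and 1.22 in macrophage-like nuclei, and fell by 2.01 in progenitor and by 2.56 in other granulosa-like nuclei. In the order of the 13 classes with 3 or more goats, 1 of 12 neighbouring steps passed, the one from lymphatic to blood endothelial-like nuclei (log2 fold change 1.60 ± 0.42, adjusted p = 0.00551), and it did not pass without the goat as a block (adjusted p = 0.0779).

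NOTCH2, the receptor linked to granulosa cells, was found in every class. Fibroblast-like nuclei had 531, 858 and 890 CPM in Du'an 1, Du'an 2 and Nubian 1, and cycling granulosa-like nuclei 701, 727, 458 and 790 CPM. Macrophage-like, smooth muscle-like and other granulosa-like nuclei had means of 659, 644 and 638 CPM, and the values of these 5 classes overlapped. Epithelial-like (536 CPM), progenitor granulosa-like (452), pericyte-like (423), mural granulosa-like (361), T or natural killer-like (351) and theca-like nuclei (327) followed as class means. Both endothelial classes lay lowest, lymphatic with 120, 135, 157 and 94.5 CPM and blood with 90.3, 155, 150 and 76.4 CPM, below every theca-like value. The 6642 nuclei of the largest unnamed cluster had 536, 530, 518 and 616 CPM. NOTCH2 rose against the other classes in 7 of 14, the largest being cycling granulosa-like (0.93 ± 0.14, adjusted p = 6.26e-07, 37.4% of all genes called) and other granulosa-like nuclei (0.92 ± 0.14, 34.8% called). It fell in 4, with log2 fold changes of -1.85 ± 0.19 in blood and -1.66 ± 0.19 in lymphatic endothelial-like nuclei, and -1.01 in ciliated-like and -0.54 in theca-like nuclei. Of 12 neighbouring steps only the one from theca-like to lymphatic endothelial-like nuclei passed (1.05 ± 0.23, adjusted p = 0.000382) and the neighbouring steps above it did not.

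NOTCH3, the receptor of vascular mural cells, was concentrated in pericyte-like nuclei, with 288, 331, 303 and 359 CPM (320 ± 31.1, SD, n = 4). All 4 goats were close to one another there. The next highest single values were 91.8 CPM in epithelial-like and 74.2 CPM in theca-like nuclei of Du'an 1, which rest on 6 and 9 UMIs with exact Poisson 95% intervals of 33.7 to 200 and 33.9 to 141 CPM. The other 3 goats had 20.3 to 23.9 CPM in epithelial-like and 11.9 to 31.2 CPM in theca-like nuclei. Smooth muscle-like nuclei had 35.9, 38.5, 21.4 and 24.5 CPM, and fibroblast-like nuclei 11.5, 22.1 and 34.4 CPM. In the remaining classes the means were 1.10 to 3.93 CPM. The log2 fold change against the other classes was 5.86 ± 0.23 in pericyte-like nuclei (adjusted p = 6.31e-25, 11.1% of all genes called). NOTCH3 also rose in epithelial-like (2.34), smooth muscle-like (2.23), fibroblast-like (2.05) and theca-like nuclei (1.99), and the call in fibroblast-like nuclei was lost without Nubian 1, which supplied 60 of its 65 UMIs. It fell in T or natural killer-like nuclei and in all 4 granulosa classes, by 1.48 to 2.62. The step from pericyte-like to epithelial-like nuclei (3.26 ± 0.39, adjusted p = 1.29e-08) and that from fibroblast-like to macrophage-like nuclei (2.68 ± 0.53, adjusted p = 7.33e-05) were the 2 of 12 that passed, and the steps among the 4 classes between them did not pass.

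JAG1, a Jagged ligand of vessels and mural cells, had 418, 287, 572 and 360 CPM in blood endothelial-like nuclei (409 ± 121, SD, n = 4). In pericyte-like nuclei it had 418, 262, 406 and 318 CPM (351 ± 74.3). The goats of these 2 classes overlapped, and the difference was 0.32 ± 0.33 on the log2 scale (adjusted p = 0.601). The summed level of 8 blood endothelial markers was 94.2 to 343 CPM in pericyte-like and 4029 to 4991 CPM in blood endothelial-like nuclei. Lymphatic endothelial-like nuclei followed with 46.1, 39.9, 75.2 and 115 CPM, a step of 2.25 ± 0.35 below pericyte-like nuclei (adjusted p = 2.72e-06). Between 13.1 and 46.1 CPM lay the means of macrophage-like, T or natural killer-like, smooth muscle-like, theca-like, fibroblast-like, progenitor granulosa-like and epithelial-like nuclei. Mural, other and cycling granulosa-like nuclei had means of 2.61, 2.21 and 1.68 CPM, and the step down to them from macrophage-like nuclei passed (2.09 ± 0.45, adjusted p = 0.000122). Against the other classes JAG1 rose in 5 of 14 and fell in 5. The rises were 4.27 ± 0.18 in blood endothelial-like (adjusted p = 9.92e-25, 28.2% of all genes called), 3.93 ± 0.23 in pericyte-like, 1.66 in ciliated-like, 1.503 in lymphatic endothelial-like and 0.77 in progenitor granulosa-like nuclei. The largest falls were -3.97 in cycling, -3.73 in other and -3.20 in mural granulosa-like nuclei.

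JAG2, the other Jagged ligand, was highest in blood endothelial-like nuclei, with 78.8, 71.2, 120 and 67.9 CPM (84.4 ± 23.9, SD, n = 4). Ciliated-like nuclei had 22.1 and 36.7 CPM in Du'an 2 and Nubian 2, from 7 and 16 UMIs, and lymphatic endothelial-like nuclei 6.40, 4.43, 6.48 and 4.61 CPM. The means of the other classes were at most 4.21 CPM. The log2 fold changes against the other classes were 5.35 ± 0.18 in blood endothelial-like (adjusted p = 3.05e-28), 4.04 ± 0.42 in ciliated-like and 1.21 ± 0.33 in lymphatic endothelial-like nuclei. The lymphatic call, on 29 UMIs, was lost with Leiden resolution 0.4, with classes by gate and without Nubian 1. JAG2 fell in progenitor granulosa-like (-1.38), macrophage-like (-1.45) and cycling granulosa-like nuclei (-3.10). Only the step from blood to lymphatic endothelial-like nuclei passed among 12 (3.85 ± 0.33, adjusted p = 1.23e-12).

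DLL4, the Delta-like ligand of arteries and tip cells, had 50.5, 30.1, 44.3 and 38.2 CPM in blood endothelial-like nuclei (40.8 ± 8.71, SD, n = 4), from 222 UMIs. Lymphatic endothelial-like nuclei had 16.7, 18.4, 14.7 and 18.4 CPM from 84 UMIs, below all blood endothelial values. Ciliated-like nuclei had 15.8 and 13.8 CPM in Du'an 2 and Nubian 2, from 5 and 6 UMIs, with exact Poisson 95% intervals of 5.12 to 36.8 and 5.05 to 29.98 CPM. The 8 blood endothelial markers summed to 429 and 241 CPM in these ciliated-like nuclei, and their part in the DLL4 and JAG2 values was not tested. Every other class had a mean of at most 0.627 CPM, and theca-like nuclei had 0 UMIs in all 4 goats, which allows up to 7.11 to 24.7 CPM per goat by a floor of 3 counts. DLL4 rose by 5.96 ± 0.28 in blood endothelial-like (adjusted p = 3.55e-22), 4.75 ± 0.68 in ciliated-like and 4.64 ± 0.34 in lymphatic endothelial-like nuclei, and was called lower in 0 of 14 classes. These fitted sizes are no bounds, since theca-like nuclei had 0 UMIs. The step from blood to lymphatic endothelial-like nuclei was 1.22 ± 0.36 (adjusted p = 0.0149). It lost the call with classes by gate (adjusted p = 0.105), without Du'an 1 (0.142) and without Nubian 1 (0.151), with log2 fold changes of 1.27, 1.08 and 1.1199. The next step, from lymphatic endothelial-like to pericyte-like nuclei with 1 DLL4 UMI, also passed (3.90 ± 0.92, adjusted p = 0.00141).

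**Figure D2:**
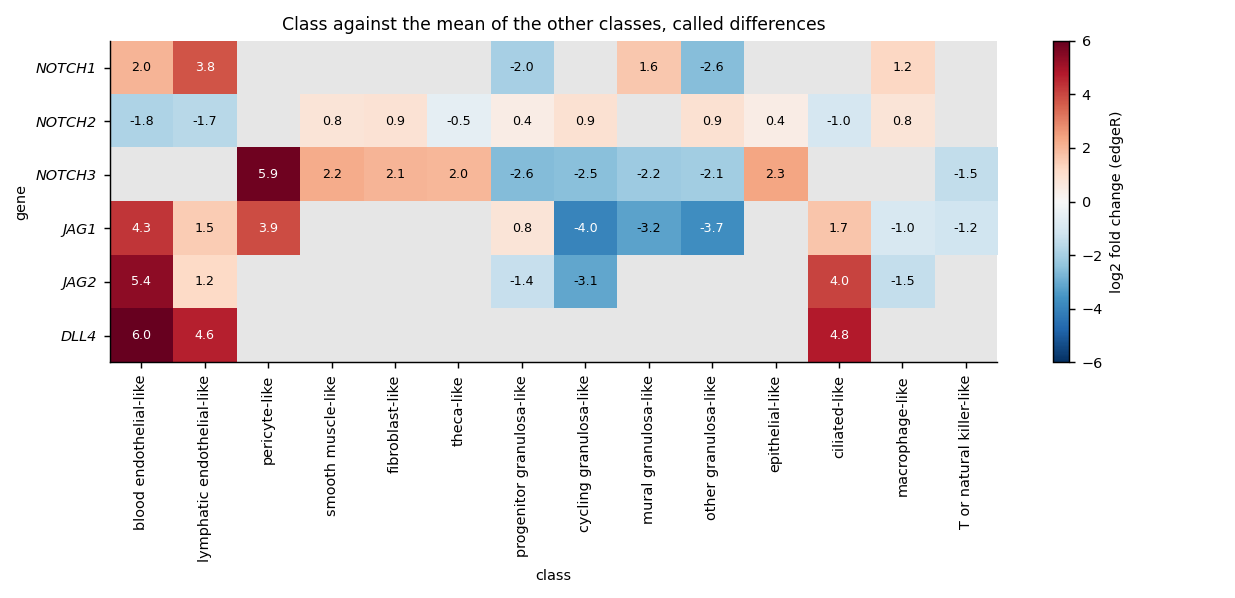
Log2 fold change of each gene (vertical axis) in each class (horizontal axis) against the mean of the other classes, drawn only where the edgeR adjusted p was under 0.05; grey cells were tested and not called. Blood and lymphatic endothelial-like nuclei share rises of NOTCH1, JAG1, JAG2 and DLL4 and a fall of NOTCH2, and pericyte-like nuclei show rises of NOTCH3 and JAG1.

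The calls were also counted by class, over the 6 members and beside the share of all genes called in the same comparison. Blood endothelial-like nuclei had 4 higher and 1 lower, beside 28.2% of all genes (19.5% higher and 8.79% lower). Lymphatic endothelial-like nuclei had 4 higher and 1 lower, beside 24.5% of all genes (17.1% higher and 7.36% lower). Ciliated-like nuclei had 3 higher and 1 lower, beside 25.8% of all genes (16.8% higher and 8.92% lower). For pericyte-like nuclei it was 2 higher and 0 lower, beside 11.1% of all genes (7.87% higher and 3.23% lower), for epithelial-like nuclei 2 higher and 0 lower, beside 23.9% of all genes (15.3% higher and 8.67% lower), for smooth muscle-like nuclei 2 higher and 0 lower, beside 23.1% of all genes (17.1% higher and 6.01% lower) and for fibroblast-like nuclei 2 higher and 0 lower, beside 13.8% of all genes (10.7% higher and 3.07% lower). In macrophage-like nuclei the count was 2 higher and 2 lower, beside 51.8% of all genes (29.9% higher and 21.9% lower), and in theca-like nuclei 1 higher and 1 lower, beside 16.9% of all genes (9.13% higher and 7.73% lower). T or natural killer-like nuclei had 0 higher and 2 lower, beside 50.9% of all genes (27.4% higher and 23.6% lower). Among the granulosa classes, progenitor-like nuclei had 2 higher and 3 lower, beside 28.9% of all genes (18.8% higher and 10.1% lower), mural-like nuclei 1 higher and 2 lower, beside 31.9% of all genes (16.9% higher and 15% lower), cycling-like nuclei 1 higher and 3 lower, beside 37.4% of all genes (20.3% higher and 17.2% lower) and other granulosa-like nuclei 1 higher and 3 lower, beside 34.8% of all genes (20.9% higher and 13.9% lower). Both endothelial classes had the most members higher, followed by ciliated-like nuclei, which rest on 2 goats.

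In blood endothelial-like nuclei the same 4 genes, NOTCH1, JAG1, JAG2 and DLL4, were called higher under each of the 11 alternatives run. Within the endothelium JAG1 (2.57 ± 0.34, adjusted p = 8.42e-08), JAG2 and DLL4 were higher in blood endothelial-like nuclei and NOTCH1 was higher in lymphatic endothelial-like nuclei, while NOTCH2 (-0.17 ± 0.22, adjusted p = 0.757) and NOTCH3 were not called. Of all genes, 13.1% were called in that comparison, 6.15% higher and 6.91% lower. Blood endothelial markers summed to 2079 to 2323 CPM in lymphatic endothelial-like nuclei and lymphatic markers to 186 to 364 CPM in blood endothelial-like nuclei.

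Between the contractile classes, pericyte-like nuclei had more NOTCH3 (3.37 ± 0.34, adjusted p = 6.14e-10) and more JAG1 (3.98 ± 0.38, adjusted p = 1.32e-10) than smooth muscle-like nuclei, and less NOTCH2 (-0.71 ± 0.22, adjusted p = 0.0387). Smooth muscle-like nuclei had 18.3, 13.3, 26.7 and 24.5 CPM of JAG1, below every pericyte-like value. Of all genes, 6.96% were called between these classes, 3.1% higher and 3.86% lower.

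The granulosa-like states differed most in NOTCH1 and JAG1. NOTCH1 was higher in mural than in other granulosa-like nuclei, at 24.5, 59.3 and 83.6 CPM against 1.99 to 9.27 CPM, a log2 fold change of 3.86 ± 0.49 (adjusted p = 1.75e-07, 13.4% of all genes called, 5.43% higher and 7.96% lower). With classes by gate it was 2.42 (adjusted p = 3.79e-05). NOTCH2 was lower in mural than in other granulosa-like nuclei (-0.75 ± 0.23, adjusted p = 0.0208), a call that was lost without the goat as a block, with classes by gate and without Du'an 1, Du'an 2 or Nubian 2. JAG1 was higher in progenitor granulosa-like nuclei, with 19.5, 77.3, 36.2 and 23.4 CPM, than in other granulosa-like nuclei, with 2.86, 1.51, 2.34 and 2.11 CPM. The groups did not overlap and the log2 fold change was 4.18 ± 0.39 (adjusted p = 3.02e-11, 18% of all genes called, 10.5% higher and 7.44% lower), or 2.52 with classes by gate. The blood endothelial markers summed to 58.4, 156, 73.7 and 55.3 CPM in the progenitor sums and to 67.4 to 81.2 CPM in the other granulosa sums. The goat with the highest JAG1, Du'an 2, also had the highest sum of these markers. Pericyte markers summed to 22.7, 36.4, 20.5 and 54.7 CPM in the progenitor sums, highest in Nubian 2. The part of either list in the JAG1 values was not tested. Against mural granulosa-like nuclei the progenitor nuclei had more JAG1 (3.69 ± 0.43) and less NOTCH1 (-3.35 ± 0.49), with 20.9% of all genes called, 13% higher and 7.96% lower.

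In cycling granulosa-like nuclei NOTCH1 was 1.90, 11.6, 79.4 and 5.78 CPM. Nubian 1 stood apart from the other 3 goats there, and the 9 mural granulosa markers, which summed to 20476 to 23836 CPM in mural granulosa-like nuclei, summed to 1680, 4007, 16085 and 1757 CPM in the cycling nuclei, highest in the same goat. Their part in its NOTCH1 level was not tested.

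The share of nuclei with at least 1 UMI was taken after each nucleus was thinned to 1000 UMIs, since depth differed between classes. NOTCH3 was seen in 25.3% ± 2.28 (SD, n = 3 goats) of pericyte-like nuclei, with 14 of 61, 11 of 40 and 34 of 133 nuclei in Du'an 1, Du'an 2 and Nubian 1, and 35.4% unthinned. In T or natural killer-like nuclei, taken as a class that should lack it, the share was 0.248% (0.593% unthinned). JAG1 was seen in 23.4% ± 4.99 of blood endothelial-like nuclei (35.6% unthinned), in 26.9% ± 1.64 of pericyte-like nuclei (n = 3 goats) and in 1.03% of T or natural killer-like nuclei (3.13% unthinned). JAG2 was seen in 8.55% ± 1.39 of blood endothelial-like nuclei (15.9% unthinned), in 0.971% of lymphatic endothelial-like nuclei and in 0.148% of T or natural killer-like nuclei (0.496% unthinned). DLL4 was seen in 3.56% ± 0.990 of blood endothelial-like nuclei (8.83% unthinned) and in 1.34% ± 0.899 of lymphatic endothelial-like nuclei, with 0 of 104 in Nubian 2, which allows up to 2.88%. Of 2329 thinned T or natural killer-like nuclei 0 held DLL4 (0.0739% unthinned, as the mean over goats), which allows a share of up to 0.129% over the pooled nuclei, counting error only. For these 4 genes the share in the class of highest level lay above every T or natural killer-like value. Before thinning a T or natural killer-like nucleus held 2288 UMIs at the median, a blood endothelial-like nucleus 1976, a pericyte-like one 1377.5 and a lymphatic endothelial-like one 1762.5. No class was assumed to lack NOTCH1 or NOTCH2. NOTCH1 was seen in 17.6% ± 4.07 of lymphatic and 8.64% ± 2.62 of blood endothelial-like nuclei, and NOTCH2 in 43.0% ± 4.17 of fibroblast-like and 10.6% of blood endothelial-like nuclei.

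Members were also counted together in the same thinned nuclei. JAG2 was found in 12.2%, 13.98%, 18.3% and 12.9% of the blood endothelial-like nuclei with a JAG1 UMI and in 5.74%, 5.95%, 7.05% and 8.18% of those without, a higher share beside JAG1 in each of the 4 goats. NOTCH1 was held by 3 of 13, 4 of 21, 3 of 19 and 0 of 3 nuclei with DLL4, against 24 of 321, 44 of 526, 49 of 413 and 8 of 138 without, a higher share beside DLL4 in 3 of the 4 goats. JAG1 was held by 5 of 13, 1 of 21, 10 of 19 and 1 of 3 nuclei with DLL4, against 85 of 321, 92 of 526, 110 of 413 and 30 of 138 without, also higher in 3 of the 4. Beside NOTCH1 the share with JAG1 was lower in 3 of the 4 goats, with 4 of 27, 13 of 48, 13 of 52 and 0 of 8 nuclei against 86 of 307, 80 of 499, 107 of 380 and 31 of 133 without NOTCH1. In pericyte-like nuclei NOTCH3 and JAG1 were seen together in 18 of 252 nuclei, and JAG1 was more frequent beside NOTCH3 in 2 goats and less frequent in the other 2. Thinned nuclei still differ in how well each was captured, and no test was made on nuclei.

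Blood endothelial-like nuclei with a DLL4 UMI were then compared with those without. The comparison was planned on nuclei thinned to 1000 UMIs, where edgeR called 0 of 4034 genes. The run without thinning, given first, was an alternative, and all calls named below come from it. Without thinning, 42, 54, 44 and 18 nuclei with DLL4 stood against 440, 548, 529 and 163 without, and 220 of 6992 genes were called (3.15%). Of the arterial list, 5 of the 7 tested were called higher and 0 lower: the semaphorin SEMA3G (1.60 ± 0.29), the gap junction genes GJA4 (1.40 ± 0.32) and GJA5 (1.33 ± 0.21), the kinase BMX (1.199 ± 0.19) and EFNB2 (0.81 ± 0.18), the ephrin of arteries. The Notch target HEY1 rose by 1.57 ± 0.36 (adjusted p = 0.0201) and JAG1 by 0.66 ± 0.17 (adjusted p = 0.0459). NR2F2, the transcription factor of veins, was the 1 called of 2 tested venous genes and fell by 1.71 on the log2 scale (adjusted p = 0.0154). NR2F2 was also among the markers used for stromal nuclei, as was DCN, which fell by 4.17 ± 0.67 (edgeR adjusted p = 0.00269). Values of the other stromal markers are not given here, and the part of stromal transcripts in the fall of NR2F2 was not tested. UNC5B and SOX17 of the arterial list, SELP of the venous list and CD34, ANGPT2 and ESM1 of the tip cell list were not called. ESM1 had the largest difference among those not called (2.38 ± 0.71, adjusted p = 0.0768). JAG2 (0.73 ± 0.25, adjusted p = 0.133), NOTCH1 (0.44 ± 0.25, adjusted p = 0.405) and NOTCH2 (-0.80 ± 0.29, adjusted p = 0.149) were not called. Nuclei with and without a DLL4 UMI were not matched for depth here. With nuclei thinned to 1000 UMIs, 13, 21 and 19 nuclei of 3 goats were left with DLL4, edgeR called 0 of 4034 genes (280 at an unadjusted p under 0.05) and DESeq2 called 0 as well. The estimates there were 1.43 ± 0.49 for GJA5, 0.82 ± 0.39 for EFNB2, 0.69 ± 0.47 for BMX, 0.57 ± 0.36 for JAG1 and -0.84 ± 0.90 for NR2F2, each of the same sign as without thinning, while CD34, ANGPT2 and SELP had the opposite sign. The 5 arterial genes with enough counts after thinning had a median of 0.82, beside -0.21 for all genes tested, and SEMA3G, GJA4 and HEY1 were not tested there.

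**Figure D3:**
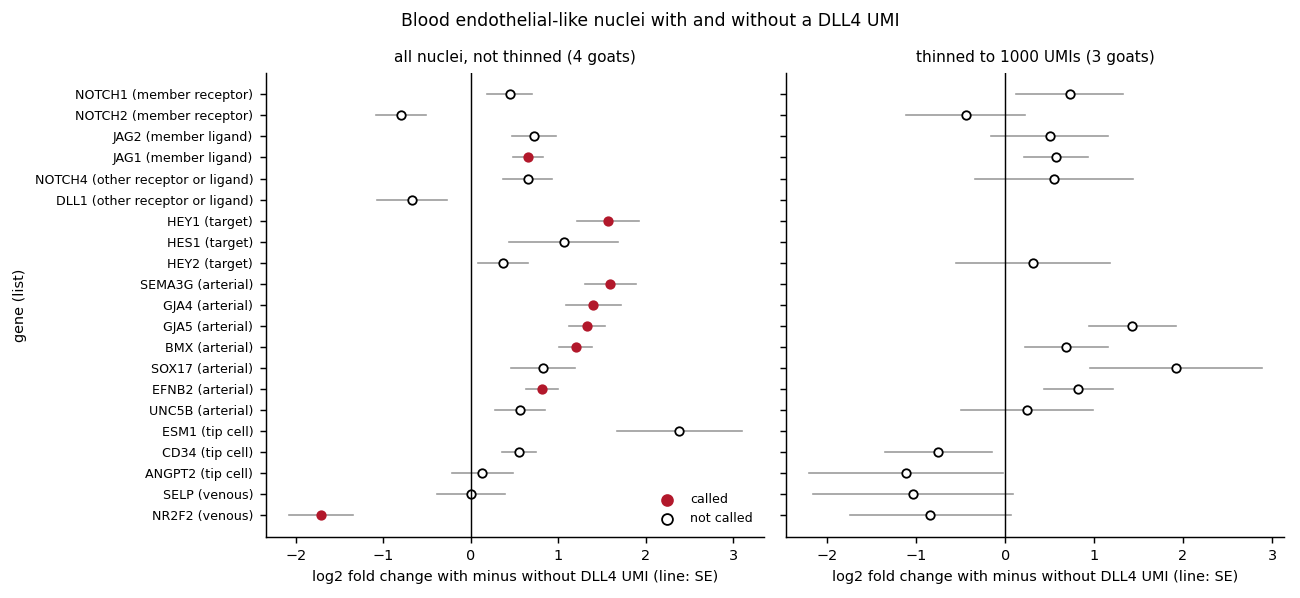
Log2 fold change (horizontal axis, line: SE) of the Notch genes and of the arterial, tip cell and venous lists between blood endothelial-like nuclei with and without a DLL4 UMI, without thinning (left) and thinned to 1000 UMIs (right); filled points had an edgeR adjusted p under 0.05. On the left 5 arterial genes, HEY1 and JAG1 were called to the right of 0 and NR2F2 to the left. On the right, the planned setting, no gene was called.

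The 44 other genes of the pathway were then taken from lists, of which 38 were tested. In blood endothelial-like nuclei 12 of the 38 were called higher and 4 lower, beside 19.5% and 8.79% of all genes, with a median log2 fold change of 0.09 beside 0.02 for all genes. The receptor NOTCH4, known from endothelium, had 41.3, 65.5, 49.7 and 46.7 CPM there and rose by 6.54 ± 0.34 (adjusted p = 2.78e-19), and every goat lay far above the highest class mean elsewhere, 7.51 CPM. The target HEY1 had 14.5, 23.9, 16.8 and 52.4 CPM (6.33 ± 0.41). The glycosyltransferase MFNG (4.76 ± 0.38), which adds sugars to Notch receptors, and the ligand DLL1 (4.30 ± 0.29) rose as well. Neither was highest in this class: MFNG had a mean of 14.8 CPM against 39.5 CPM in the highest other class, and DLL1 31.97 against 47.4 CPM. The ubiquitin ligase DTX4 fell (-1.60 ± 0.42), with 14.5, 2.87, 2.69 and 0 CPM. Its mean of 5.02 CPM lay above the 2.93 CPM of the lowest other class. RBPJ, the DNA-binding partner of the cut receptor, fell as well (-0.92 ± 0.13), with 295, 204, 259 and 159 CPM.

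In lymphatic endothelial-like nuclei 12 of 38 were called higher and 3 lower, beside 17.1% and 7.36% of all genes, with a median of 0.19 beside 0.00 for all genes. DTX1, a ubiquitin ligase of the Deltex family, had 663, 388, 443 and 429 CPM and rose by 6.40 ± 0.27 (adjusted p = 2.03e-24). DLL1 rose by 4.93 ± 0.28, MFNG by 3.64 ± 0.48 and the target HES1 by 2.85 ± 0.29, while RBPJ (-0.69 ± 0.13) and DTX4 (-1.87 ± 0.48) fell. DTX4 had 15.4, 0.633, 1.30 and 4.61 CPM, a mean of 5.48 CPM against 2.93 CPM in the lowest other class. MFNG had a mean of 7.48 CPM against 39.5 CPM in the highest other class, and HES1 33.3 against 36.7 CPM. Set directly against lymphatic endothelial-like nuclei, blood endothelial-like nuclei had more NOTCH4 (5.40 ± 0.62) and HEY1 (5.74 ± 0.85), the 2 of 38 called higher, and less of 5 others, among them DTX1 (-5.80 ± 0.55) and HES1 (-1.47 ± 0.42). Of all genes 6.15% were higher and 6.91% lower in that comparison, so the count called higher was near the background.

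In pericyte-like nuclei 5 of 38 were called higher and 1 lower, beside 7.87% and 3.23% of all genes, with a median of -0.03 beside -0.17 for all genes. The target HEYL had 53.0, 131, 67.7 and 133 CPM and rose by 7.13 ± 0.40 (adjusted p = 1.46e-18), against at most 5.56 CPM as the mean of any other class. HEY2, a related target, had 277, 123, 130 and 184 CPM (2.20 ± 0.40). NEURL1B, a ubiquitin ligase of Notch ligands, rose by 4.49 ± 0.42 and DTX1 by 2.42 ± 0.64, and the ubiquitin ligase subunit FBXW7 fell (-0.65 ± 0.16). HEY2 had a mean of 179 CPM against 280 CPM in the highest other class, and DTX1 47.3 against 481 CPM. Against smooth muscle-like nuclei HEYL (3.97 ± 0.51), NEURL1B (3.35 ± 0.57) and HEY2 (3.09 ± 0.55) were the 3 of 38 called higher and 0 were called lower, beside 3.1% and 3.86% of all genes.

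In ciliated-like nuclei, on 2 goats, 11 of 38 were called higher and 2 lower, beside 16.8% and 8.92% of all genes. The median was -0.35 beside -0.18 for all genes, of opposite sign to the balance of the calls. HEY1 (5.13 ± 0.91), NEURL1 (3.71 ± 0.98), NEURL1B (2.48 ± 0.72) and DLL1 (2.46 ± 0.90) rose, and the Mastermind-like coactivators MAML3 (-2.04 ± 0.34) and MAML1 (-1.02 ± 0.27) fell. The means of HEY1, NEURL1B and DLL1 were 11.6, 20.5 and 7.03 CPM, against 26.9, 104 and 47.4 CPM in the highest other class. NEURL1 had a mean of 9.61 CPM, beside 9.61 CPM in its highest other class. In Du'an 2 and Nubian 2 HEY1 had 9.47 and 13.8 CPM, NEURL1 3.16 and 16.1 CPM and DLL1 9.47 and 4.59 CPM. The floor of 3 counts was 9.47 and 6.89 CPM in these goats, so none of these genes was above it in both. HEY1 and DLL1 also rose in blood endothelial-like nuclei, and the part of the blood endothelial markers seen in ciliated-like nuclei, 429 and 241 CPM, in their values was not tested.

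Among the granulosa-like states, 9 of the 38 were higher and 1 lower in progenitor than in other granulosa-like nuclei, beside 10.5% and 7.44% of all genes, with a median of 0.14 beside -0.03 for all genes. DTX4 had 77.3, 64.7, 48.8 and 25.6 CPM against 14.3, 5.11, 5.58 and 5.81 CPM (2.96 ± 0.38), and the coactivator MAML2 1301, 1291, 1087 and 1582 CPM against 386, 279, 378 and 315 CPM (2.05 ± 0.30). For both genes the groups did not overlap. RBPJ also rose (1.00 ± 0.16). In mural against other granulosa-like nuclei 4 were higher and 2 lower, beside 5.43% and 7.96% of all genes, and HEY2 was among the higher, with 210, 335 and 295 CPM in Du'an 2, Nubian 1 and Nubian 2 against 52.4 to 78.5 CPM (2.01 ± 0.47, adjusted p = 0.0018).

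**Figure D4:**
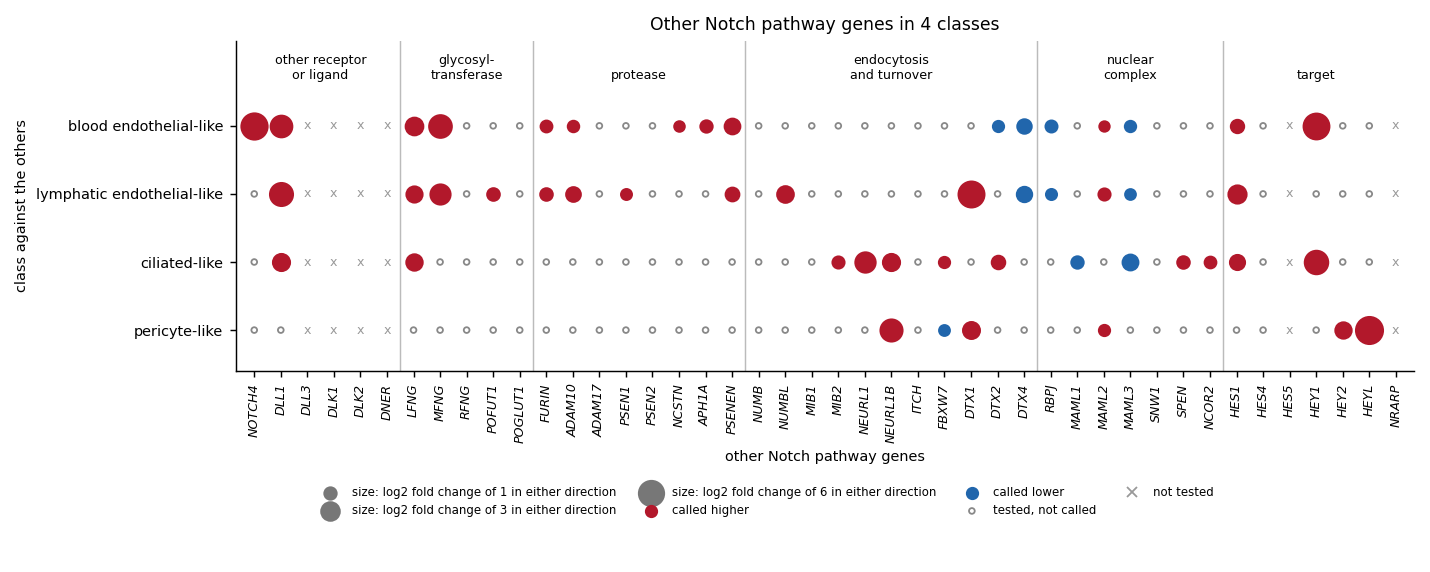
The 44 other Notch pathway genes (horizontal axis, grouped by role) in 4 classes against the others (vertical axis); filled points were called by edgeR at an adjusted p under 0.05, red higher and blue lower, growing with the log2 fold change, open points were tested and not called, and crosses mark genes not tested. The largest points are NOTCH4 and HEY1 in blood endothelial-like, DTX1 in lymphatic endothelial-like and HEYL in pericyte-like nuclei.

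Over the 52 sums per goat and class, the genes whose log2(CPM + 1) followed each member most closely were taken from 17616 genes by Pearson's r, as a description in which the sums share libraries and classes. NOTCH3 was followed by PDE1A (0.88), COL27A1 (0.86) and DAAM2 (0.84), and JAG1 by APP (0.86), MYH9 (0.80) and TGFB2 (0.80). DLL4 was followed by AATK (0.92), CXHXorf36 (0.92) and GATA2 (0.90), and JAG2 by the uncharacterised LOC102172960 (0.83), AATK (0.82) and DLL4 itself (0.82). The closest to NOTCH1 were PECAM1 (0.73), SCARF1 (0.73) and CEP85L (0.73), and to NOTCH2 MPP6 (0.74), TMCO4 (0.70) and PHF20 (0.69).

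The study set the polytocous against the monotocous breed, and each member was compared between breeds within the 11 classes that had sums from all 4 goats. After the filter on low counts 37 tests of members remained, and 0 passed (edgeR, lowest adjusted p = 0.473, with 2 at an unadjusted p under 0.05), beside 0% of all genes in each class. DESeq2 also called 0 members. The log2 difference was positive, higher in Nubian goats, in 19 tests and negative in 18. The 2 at an unadjusted p under 0.05 were JAG1 in lymphatic endothelial-like nuclei (1.13 ± 0.32, adjusted p = 1.00), with 46.1 and 39.9 CPM in Du'an and 75.2 and 115 CPM in Nubian goats, and NOTCH3 in smooth muscle-like nuclei (-0.64 ± 0.27, adjusted p = 0.999), with 35.9 and 38.5 against 21.4 and 24.5 CPM. In both the breeds did not overlap, and the smallest two-sided p that an exact permutation of 2 against 2 goats allows is 0.333. The largest difference was that of NOTCH1 in cycling granulosa-like nuclei (2.63 ± 1.36, adjusted p = 1.00), with 1.90 and 11.6 CPM in Du'an and 79.4 and 5.78 CPM in Nubian goats, where 1 goat stood apart and the breeds overlapped. Nubian 1 is the goat whose cycling nuclei also had the highest sum of mural granulosa markers.

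In the classes of highest level none of the tested breed differences passed, which does not show that the breeds were alike. NOTCH3 in pericyte-like nuclei differed by 0.08 ± 0.31, DLL4 in blood endothelial-like nuclei by 0.05 ± 0.35, JAG2 there by 0.33 ± 0.32, JAG1 there by 0.40 ± 0.32 and NOTCH1 in lymphatic endothelial-like nuclei by -0.29 ± 0.25, all Nubian minus Du'an on the log2 scale with adjusted p of at least 0.999. NOTCH2 was not tested in fibroblast-like nuclei, which had sums from 3 goats. The contrast of each member's highest class with the other classes was also compared between breeds. The differences were -0.97 ± 0.59 for NOTCH1, -0.39 ± 0.71 for NOTCH3 and -0.28 ± 0.55 for JAG2, each with an adjusted p of 1. For NOTCH2 the difference was 0.57, but its fibroblast-like nuclei came from Nubian 1 alone on the Nubian side. The differences were 0.00 for JAG1 and -0.26 for DLL4, and neither was called. Their SE (10.2 and 1549) was not usable, because it was derived from a test statistic near 0. This stood beside 0% of all genes called for the blood endothelial, lymphatic endothelial and pericyte-like contrasts. For the fibroblast-like contrast, which rests on Nubian 1 alone on the Nubian side, no such share is given.

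**Figure D5:**
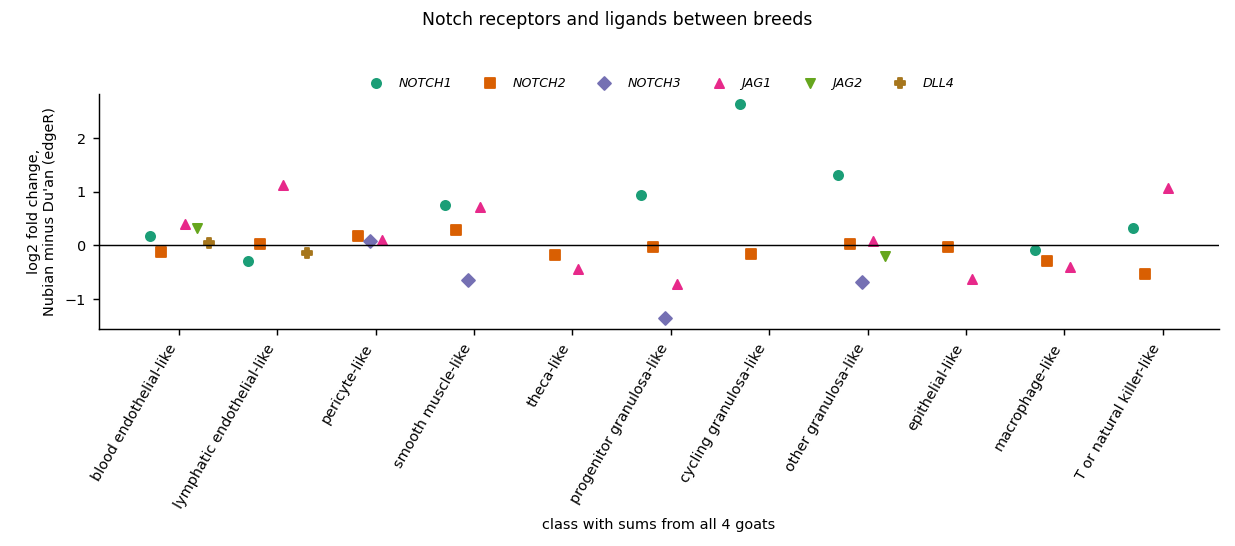
Log2 fold change of each member between breeds (vertical axis, above 0 higher in Nubian goats) in the 11 classes with sums from all 4 goats (horizontal axis), where a symbol is shown only if the gene passed the filter on low counts. Most points lie within 1 of the line at 0, no point was called, and the highest is NOTCH1 in cycling granulosa-like nuclei.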

How the data were processed

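Counts of unique molecular identifiers per gene and nucleus were deposited by the authors as 1 matrix per goat. Their processing notes name Cell Ranger 5.0.0 and Seurat, while the matrix headers give version 3.1.0. The genome is given by assembly number only. Gene names are those of the files, and 2 locus tags were matched to symbols through the RefSeq gene table. Deposited tables of the authors' own marker comparisons (log fold changes, p-values and shares of cells) were not used. Members, lists and comparisons were chosen with earlier results of these data known.

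Nuclei within 2 SD of the mean UMIs and genes of their library and with at most 20% mitochondrial counts were kept. Variable genes for the clusters were chosen among genes seen in at least 5 nuclei, and no gene was dropped from the sums. Clusters came from scanpy 1.11.5 and leidenalg 0.10.2 (2000 variable genes without the members, other pathway genes and markers, 30 components, 20 neighbours, resolution 0.8, subclusters at 0.5). A class needed at least 3 markers raised at 10 CPM and a log2 fold of 1 over the median cluster, with a mean of at least 0.5. A cluster also stayed unnamed if its depth ratio was under 0.5 and none of its 10 leading genes was a marker of its best list. This ratio is the median, over its nuclei, of UMIs divided by the median UMIs of their goat. Granulosa subclusters of 2 classes followed other rules. Cycling granulosa-like ones were led by the cycling markers with a mean log2 fold of at least 1.5. Other granulosa-like ones were led by the cumulus markers with a mean of at least 0.5 and had a depth ratio of at least 0.5. These limits on names were chosen once the data had been seen. The doublet caller marked 185 of 44872 nuclei (0.412%) and was taken not to have worked, so no doublets were removed.

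Raw counts were summed per goat and class (at least 20 nuclei, 10 for nuclei with DLL4), giving 52 sums, and tested with the quasi-likelihood test of edgeR 4.0.16 in R 4.3.3 (TMM, filterByExpr, Benjamini-Hochberg adjustment, threshold 0.05). The goat was a block in comparisons of classes and of nuclei with DLL4. Breeds were compared within a class without a block. Each SE of a log2 fold change was the size of that change divided by the square root of the F statistic. It is not usable where the statistic is near 0. DESeq2 1.42.0 was an alternative. Genes named from the pathway were the 4 largest rises and 2 largest falls in the 4 classes with most members called higher. 6 classes tied for the fourth place, and pericyte-like nuclei were taken by the largest rise of a member after the values were seen. The pairs of granulosa-like classes and of pericyte-like and smooth muscle-like nuclei were also chosen after the data were seen, as were values given for other pathway genes in them. Intervals and floors (3 counts) cover counting error only.

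The fits were tested on simulated data. Kept UMIs per goat ranged from 29800057 to 54540864. The replicate numbers of the breeds did not pair the goats: the correlation of same-numbered goats was -0.35 to 0.10 over 11 classes.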

Additional observations from a re-analysis of the deposited data

Results flagged for a closer look

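In 10 of 66 groups of 4 goats (15.2%) 1 goat lay far from the other 3 by Dixon's test. Chance alone gives this in about 1 in 20 groups of normally distributed values. Where the other 3 goats had 0 UMIs, any count is flagged, so the share cannot be set against that rate. NOTCH1 in cycling granulosa-like nuclei was 79.4 CPM in Nubian 1 (380 UMIs) against 1.90 to 11.6 CPM. NOTCH1 in smooth muscle-like nuclei was 20.4 CPM in Nubian 1 (58 UMIs) against 9.79 to 10.4 CPM. NOTCH2 in pericyte-like nuclei was 347 CPM in Du'an 1 (59 UMIs) against 441 to 456 CPM. NOTCH3 in epithelial-like nuclei was 91.8 CPM in Du'an 1, on 6 UMIs, against 20.3 to 23.9 CPM. JAG2 in other granulosa-like nuclei was 1.79 CPM in Du'an 1, on 10 UMIs, against 1.41 to 1.45 CPM. The other 5 rest on 1 or 2 UMIs where the other goats had 0: DLL4 was 0.459 CPM in epithelial-like nuclei of Nubian 2, 0.805 CPM in macrophage-like nuclei of Du'an 2, 2.51 CPM in pericyte-like nuclei of Nubian 1 and 0.653 CPM in smooth muscle-like nuclei of Du'an 1, and JAG2 was 0.919 CPM in epithelial-like nuclei of Nubian 2.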

How the results depend on the processing

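The rises of JAG1, JAG2, DLL4, NOTCH1 and NOTCH3 in their highest class kept their call under every alternative run. Classes by gate gave no sums for pericyte-like, theca-like and epithelial-like nuclei, so NOTCH3 in pericyte-like nuclei could not be fitted there. Without the goat as a replicate block, NOTCH1 in lymphatic against blood endothelial-like nuclei was 1.48 (adjusted p = 0.0779), below the threshold. The small difference of NOTCH2 between fibroblast-like and cycling granulosa-like nuclei changed sign with DESeq2 (0.20), no replicate block (0.024) and resolution 0.4 (0.22), and ran from -0.39 to 0.20 with a goat left out. DLL4 in blood against lymphatic endothelial-like nuclei was 1.27 with classes by gate (not called) and 1.08 to 1.44 with a goat left out. Members called higher ran from 1 to 2 in fibroblast-like and from 3 to 4 in lymphatic endothelial-like nuclei with a goat left out. The breed differences of class contrasts, none called, changed sign: by gate to 0.18 for NOTCH1, -0.25 for JAG1 and 1.96 for DLL4, with the highest doublet scores removed to -0.043 for JAG1, with DESeq2 to 0.14 for JAG2 and 0.73 for DLL4, and at resolution 1.2 to 0.17 for JAG2. With a goat left out they ran from -1.75 to 0.51 (NOTCH1), 0.16 to 0.76 (NOTCH2), -0.81 to 0.45 (NOTCH3), -0.086 to 0.42 (JAG1), -1.61 to 0.99 (JAG2) and -1.33 to 1.195 (DLL4). Between breeds edgeR called 0 genes over 11 classes. At an unadjusted p under 0.05 in edgeR there were 3821. These ran from 65 of 4950 tested genes in epithelial-like to 1083 of 9063 in T or natural killer-like nuclei. DESeq2 called 331, edgeR without the filter on low counts 1623 and with classes by gate 178. With a goat left out it was 27 to 787 genes, namely 66 without Du'an 1, 27 without Du'an 2, 718 without Nubian 1 and 787 without Nubian 2. Members called between breeds were 1 without the filter and 0 to 1 with a goat left out, in both cases NOTCH1 in cycling granulosa-like nuclei. With the replicate number as a block 0 genes and 0 members were called, and with the pairing crossed 196 genes and 0 members. These counts of genes between breeds add up the calls of each class, so a gene can be counted in several classes. Leaving out a goat sets 1 goat of its breed against 2 of the other. Breed calls of those fits cannot be told from that single goat, and no conclusion on breeds is drawn from them. Genes called with DLL4 were 6 without the filter, 220 not thinned and 0 to 1 with a goat left out. NOTCH1 in lymphatic endothelial-like nuclei was 282 CPM by gate and NOTCH3 in pericyte-like nuclei 289 CPM when scaled by TMM. With classes by gate 51 values were the same, 26 moved, 3 changed sign and 2 lost the call. A level moved if it shifted by at least its SD over goats. NOTCH3 in fibroblast-like nuclei went from 22.7 to 79.4 CPM and JAG1 in smooth muscle-like nuclei from 20.7 to 47.7 CPM. NOTCH2 in blood endothelial-like nuclei went from 118 to 61.8 CPM. Shares thinned to 500 UMIs and unthinned were 10.2% and 35.9% (NOTCH1), 31.3% and 70.3% (NOTCH2), 13.6% and 35.4% (NOTCH3), 13.3% and 35.6% (JAG1), 3.96% and 15.9% (JAG2) and 1.68% and 8.83% (DLL4), in the classes of highest level. For the results not called the cause of a change was not tested.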

Other observations

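In the 6642 nuclei of the largest unnamed cluster the mean level was 24.1 CPM for NOTCH1, 550 CPM for NOTCH2, 15.5 CPM for NOTCH3 and 15.6 CPM for JAG1.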
